A study of Homo sapiens with 4 samples.

Results

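The response of SW1353 cells to interleukin-1 alone was measured by setting the array of IL-1-stimulated cells (IL1) against the array of control cells (Con). SW1353 is a human chondrosarcoma line used as a stand-in for chondrocytes, the cells of cartilage. Con cells received DMSO, the vehicle, and IL1 cells received DMSO for 1 h and then IL-1α for 6 h, a time that the figure legends of the study give as longer. The dose used for the arrays is not stated. The series holds 4 arrays of total RNA from this line, the other pair being given the deacetylase inhibitor TSA at 250 ng/ml, and those arrays entered the normalisation only. Each condition is 1 array of 1 cell line, so no difference below has a replicate check and no test was made. All genes were taken whose probes had a detection p-value under 0.01 on 1 or both arrays, which gave 9500 of the 18661 genes with an annotated probe. Of these, 8684 genes were detected on both arrays, 320 on IL1 only and 496 on Con only.

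IL-1 binds the receptor IL1R1, which with its partner IL1RAP recruits MYD88, IRAK kinases and TRAF6. These lead to the IKK complex, which releases NF-κB from the inhibitor IκBα, and to the MAP kinases that act on AP-1 factors. In cartilage the cytokine is known for the proteases that it raises, above all the collagenases, and for chemokines, IL-6 and prostaglandin synthesis.

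The cell type given in the labels was checked against 12 markers of chondrocytes. The defining markers COL2A1, the main collagen of cartilage, and ACAN, its main proteoglycan, were detected on neither array. SOX9, the master transcription factor of cartilage, COL11A1 and HAPLN1 were the 3 markers with a detected probe. Of 11 markers of fibroblasts and mesenchyme 10 were detected, against 3 of 17 for leukocytes, 2 of 8 for endothelium and 2 of 9 for epithelium.

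In the values normalised here, 872 genes (9.18%) were higher in IL1 and 813 (8.56%) were lower, where higher and lower mean a difference of at least 1.5-fold with a detected probe on the brighter array. Levels and differences are given on the log2 scale, as IL1 minus Con. The median difference over the 9500 genes was -0.10. A gene with no detected probe on 1 array, or with some probes undetected there and a mean level under the lowest level of any detected probe on that array (6.63 for Con and 6.73 for IL1), has only a bound, and its fold is written as at least N-fold, taken against that lowest level. With such bounds 761 genes were at least 1.5-fold higher and 610 at least 1.5-fold lower. At larger sizes the directions parted. At least 4-fold, 134 genes were higher and 1 was lower, and at least 16-fold 44 genes were higher and 0 were lower. A gene detected on IL1 only was kept because it was brighter there, so counts over the kept members of a list partly follow from the filter. Among the 8684 genes detected on both arrays 7.14% were higher and 6.45% lower, with a median difference of -0.10, and the members of the inflammatory and interferon lists detected on both arrays are counted separately below. In bulk RNA, fewer cells that express a gene and less RNA per cell cannot be told apart.

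**Figure D1:**
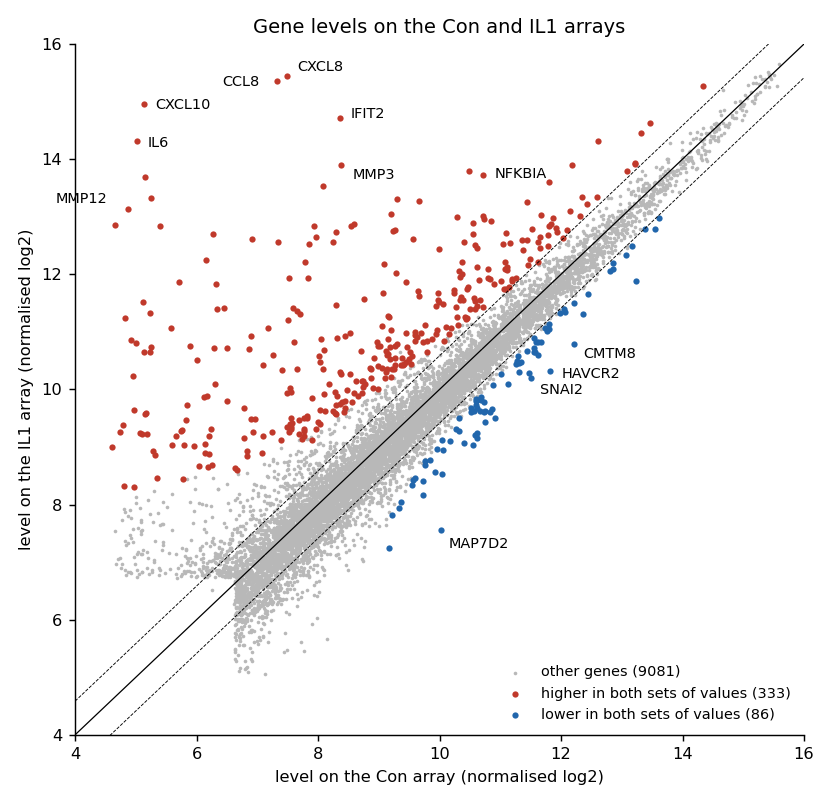
Level of each of the 9500 genes on the Con array (horizontal axis) and the IL1 array (vertical axis), both as normalised log2 intensity, 1 point a gene and 1 array a condition. The 333 red genes and 86 blue genes passed 1.5-fold (dashed lines) in both sets of values. Red points reach 15.4 for CXCL8, and the blue point farthest below the solid line of equality is MAP7D2, at a difference of -2.47.

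The authors' own deposited values, made with a different transformation, called fewer genes. In them 340 genes (3.58%) were higher and 86 (0.905%) lower, and the median difference was -0.03. All 86 of these lower genes were also lower in the values normalised here, as were 333 of the 340 higher genes, so 333 genes (3.51%) were higher and 86 (0.905%) lower in both sets of values. The genes called only by the present normalisation were dim. The mean level of both arrays had a median of 7.70 for the higher genes called only here and 9.87 for those called in both sets of values, and the corresponding medians for the lower genes were 7.64 and 10.26. No gene that was higher or lower here had the opposite sign in the deposited values. Below, a called gene is said to pass in both sets of values where it does.

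**Figure D2:**
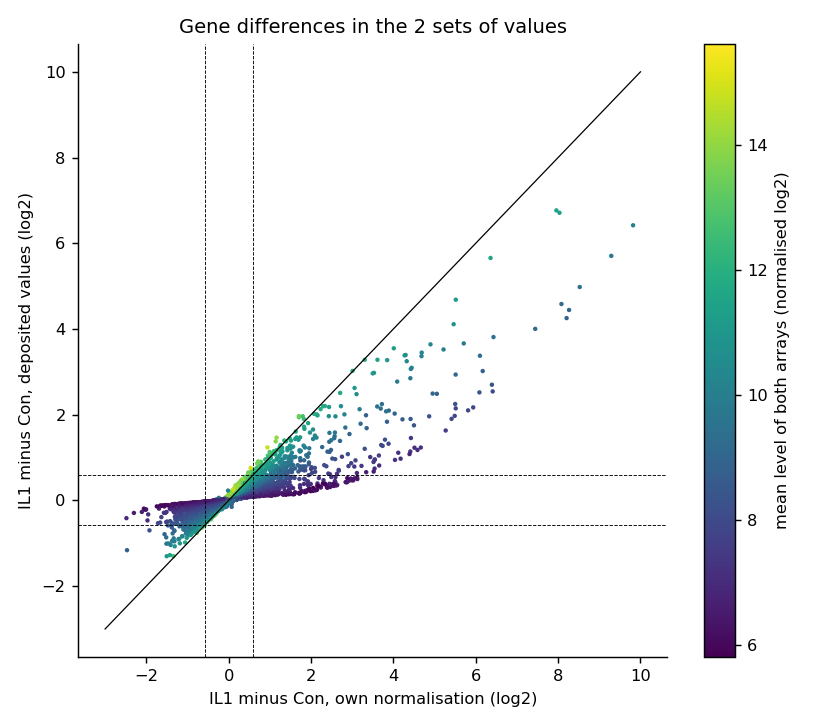
Difference of each gene, IL1 minus Con on the log2 scale, in the values normalised here (horizontal axis) and in the authors' deposited values (vertical axis), coloured by the mean level of both arrays, with the 1.5-fold thresholds dashed and equality as a solid line. Dim genes (dark points) lie near 0 in the deposited values, and 813 genes fall beyond the lower threshold on the horizontal axis against 86 on the vertical.

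Several probes for the same gene give the only repeated measurement in this comparison. Of the 189 higher genes with at least 2 kept probes, 148 had every probe past 1.5-fold in the same direction, and this held for 62 of 113 lower genes. For genes called in both sets of values the numbers were 82 of 87 higher and 12 of 14 lower. The SD between probes of a gene was 0.53 at mean levels under 7, 0.38 from 7 to 8, 0.28 from 8 to 10 and 0.16 above 12. This spread includes probes that read different transcripts and leaves out variation between cultures.

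**Figure D3:**
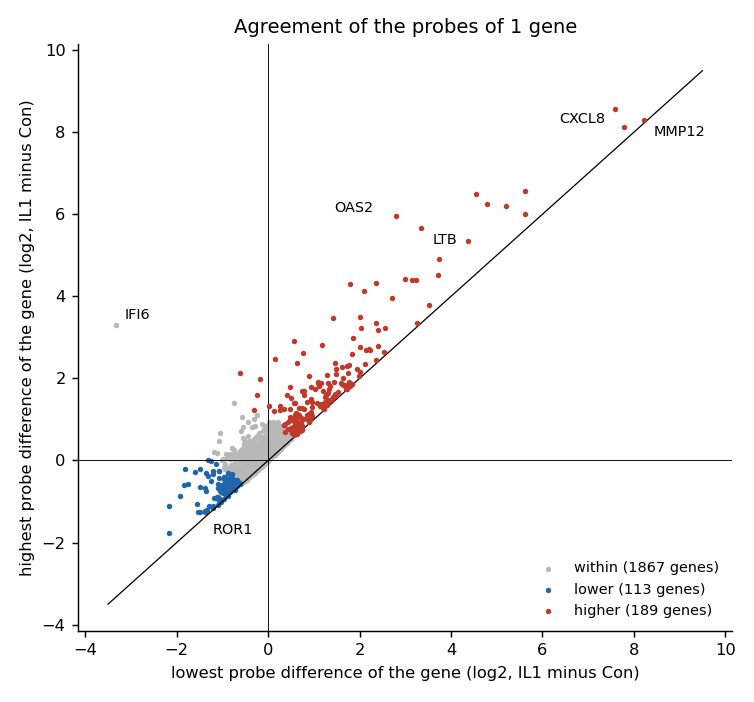
Lowest (horizontal axis) and highest (vertical axis) probe difference of each gene with at least 2 kept probes, as IL1 minus Con on the log2 scale, 1 point a gene. Points on the line have equal probe differences, as nearly holds for MMP12, while IFI6 stands alone with probes at -3.34 and 3.31.

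The chemokines, secreted proteins that attract leukocytes, were among the largest differences. Of 16 annotated CXC chemokines 5 were kept, 3 of them through IL1 only, and of 12 CC chemokines 9 were kept, 5 of them through IL1 only. Both CXC members detected on both arrays were higher, as were 3 of 4 CC members, and 3 CXC and 8 CC chemokines were higher in both sets of values. The 8 include CCL3, CCL3L1 and CCL3L3, a multicopy family whose members the probes may share. CCL3, below detection on Con, was at least 133-fold higher. The neutrophil chemokine CXCL8 was read by 2 probes, whose raw intensity was 221 and 276 on Con and 40843 and 44165 on IL1. The monocyte chemokine CCL8 went from 227 to 40183. Both genes came near the brightest probe of the IL1 array, at 50242, and whether the signal levels off there was not tested. CXCL10, which attracts T cells, lay at background on Con with 99.3 and read 30304 on IL1, a difference of 6.42 in the deposited values. CCL2 and CCL7 were higher by 5.22 and 4.68, and CCL20, below detection on Con, was at least 21.8-fold higher. The eosinophil chemokine CCL26 was the 1 kept member within 1.5-fold, at -0.22.

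Of 20 annotated members of the IL-1 family 11 were kept, 8 of them through IL1 only. Of the 3 members detected on both arrays 2 were higher, and 4 members passed in both sets of values. IL1B, the second agonist of the IL-1 receptor, read 81.9 on Con, below detection, and 2430 on IL1, a difference of 2.54 in the deposited values. The antagonist IL1RN was below detection on Con on both of its probes and at least 6.02-fold higher. IL36G, an agonist of the related IL-36 receptor, read 69.3 and 7348. Its antagonist IL36RN was at least 2.20-fold higher here and differed by 0.43 in the deposited values, within 1.5-fold, as were the receptor chains IL1R1 (at least 1.66-fold here and 0.18 deposited) and IL1RAP (at least 2.08-fold and 0.27). IL18BP, which neutralises IL-18, was at least 9.41-fold higher and passed in both sets of values, while IL18 lay at -0.11.

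IL6 was the leading member of its family, with a raw intensity of 93.2 on Con, below detection, and 19807 on IL1. Of the 6 kept members of that list 2 were kept through IL1 only. The other 4 higher members, namely LIF, IL6ST, IL11 and OSMR, passed 1.5-fold here and not in the deposited values. IL6ST encodes the signal-transducing chain shared by the family, and its difference was 1.20 here and 0.40 in the deposited values. Of 22 annotated colony-stimulating factors and other interleukins 7 were kept, 4 of them through IL1 only, and IL32, at 2.89, was the 1 member to pass in both sets of values. Of 10 kept TNF superfamily ligands 6 were kept through IL1 only, and of the 4 detected on both arrays 2 were higher. TNFSF13B, the B-cell factor BAFF, and TNFSF10, the death ligand TRAIL, were below detection on Con and at least 17.5-fold and 8.04-fold higher. TNF itself was dim, at 289 on IL1, and differed by 0.52 in the deposited values.

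**Figure D4:**
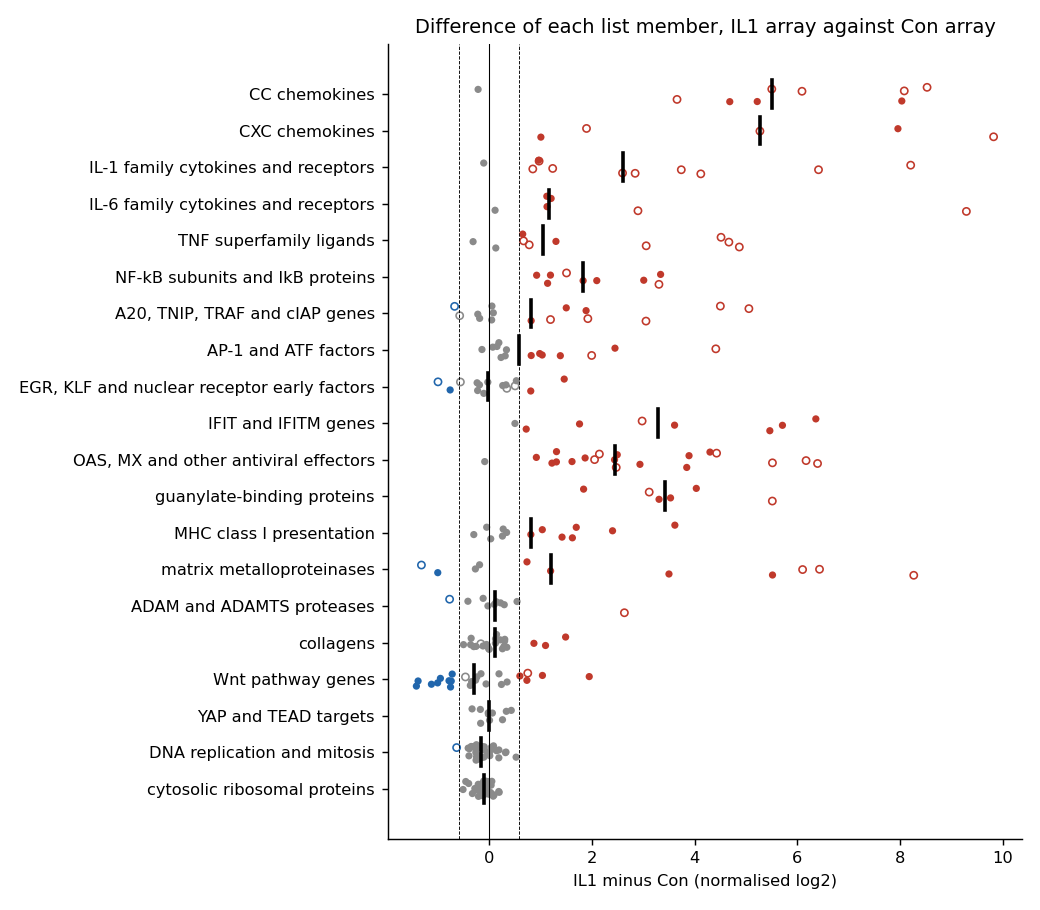
Difference of each kept member of 20 gene lists, as IL1 minus Con on the log2 scale, with the list median as a black bar and the 1.5-fold thresholds dashed. Red members were higher, blue lower and grey within 1.5-fold, and open points mark genes whose fold is a bound; members of the cytokine and interferon lists lie to the right, while ribosomal proteins and YAP targets lie within the dashed lines.

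Subunits and inhibitors of NF-κB were higher in IL1. Of 9 kept subunits and IκB proteins 7 were detected on both arrays, and all 7 of these were higher, at a median of 1.83. In both sets of values 5 were higher. The inhibitor NFKBIA, which encodes IκBα, read 1719 on Con and 13426 on IL1, a difference of 3.01 (3.02 in the deposited values). The subunits NFKB1 and NFKB2 differed by 1.83 and 2.09, RELB was at least 9.01-fold higher, and these 3 passed in both sets of values, whereas RELA, the partner of p50 in the main NF-κB dimer, differed by 1.19 here and 0.53 deposited. The nuclear IκB protein NFKBIZ had a bright probe that went from 554 to 9735 and a dim probe that went from 104 to 250. Of 15 feedback regulators of the A20, TNIP and TRAF families 8 were higher and 1 lower, beside 9.18% and 8.56% of all genes. Of the 9 detected on both arrays 4 were higher, beside 7.14% of all such genes. TNFAIP3, the ubiquitin-editing enzyme A20, read 153 and 2699. The lower member, TNIP2, was below detection on IL1 and at least 1.60-fold lower, with a difference of -0.08 in the deposited values.

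The receptor-proximal components were less uniform. Of 18 genes of IL-1 receptor and IKK signalling 6 were higher, 1 was lower and 11 lay within 1.5-fold. Over all genes 9.18% were higher and 8.56% lower. Of the 16 detected on both arrays 4 were higher and 1 lower, beside 7.14% and 6.45% of all such genes. The adaptor MYD88 (2.09), the kinases IRAK2 (3.72), MAP3K8 (at least 17.0-fold) and IKBKE (1.86) and the adaptor TICAM1 (1.36) passed in both sets of values. The IKK subunits CHUK, IKBKB and IKBKG lay at 0.12, 0.25 and 0.08, IRAK1 at 0.07 and the ubiquitin ligase TRAF6 at 0.05. PELI2, a ubiquitin ligase that acts on IRAK proteins, was the lower member, at -0.85 here and -0.31 in the deposited values.

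FOS, JUN and EGR1, which are known to peak soon after a stimulus, lay within 1.5-fold, at 0.19, 0.33 and 0.26, and FOS was dim on both arrays (192 and 198). Of 14 AP-1 and ATF factors 7 were higher and 0 lower. ATF3 (2.45), JUNB (1.38), ATF5 (1.03) and BATF2 (at least 7.67-fold) passed in both sets of values. Of 15 EGR, KLF and related early factors 2 were higher and 2 lower, beside 9.18% and 8.56% of all genes. KLF9, at 1.46, was the 1 to pass in both sets of values. The C/EBP factors parted, with CEBPB at 1.70 and CEBPD at 2.29, both bright on IL1 (19745 and 8092), and CEBPA, below detection on IL1, at least 1.71-fold lower, with -0.12 in the deposited values. Of the 9 genes of cytokine mRNA decay, ZC3H12A, the nuclease regnase-1, differed by 4.09, while ZFP36, the decay factor tristetraprolin, lay at -0.13.

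Interferon response genes were the group with the most higher members. Across the interferon lists 141 genes were kept, 32 of them through IL1 only. Of the 108 detected on both arrays 78 were higher and 0 lower, against 7.14% higher of all such genes, and the median difference was 1.46 beside -0.10. In both sets of values 77 members were higher, against 3.51% of all genes. The IFIT genes, whose proteins bind viral RNA, led the group. IFIT2 read 397 on Con and 26741 on IL1. IFIT1 was read by 2 probes, of which 1 went from 493 to 29753 and the other, below detection on Con, from 97.9 to 1292. IFIT3 was higher by 5.34 and 4.55 on 2 probes, and its remaining probe, below detection on Con, went from 106 to 3589.

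The antiviral effectors OAS, MX and related genes were higher in 12 of 13 cases detected on both arrays, and 7 more were kept through IL1 only. In both sets of values 14 were higher. RSAD2, the antiviral enzyme viperin, read 98.5 and 2985, and MX2 124 and 3844. Both lay below detection on Con. ISG15, the ubiquitin-like modifier, was detected on Con and went from 371 to 6102, and HERC5, the ligase that attaches it, differed by 4.01. APOBEC3C was the 1 member of the effector list within 1.5-fold, at -0.09. Of 6 genes of the ISG15 pathway detected on both arrays 5 were higher. USP18, which removes ISG15, was below detection on Con, at least 1.67-fold higher here and at 0.24 in the deposited values.

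Sensors and transcription factors of the same response were also higher. Of 9 nucleic acid sensors detected on both arrays 5 were higher, and 8 others were kept through IL1 only. IFIH1, the RNA sensor MDA5, differed by 4.42, and RIGI was at least 17.1-fold higher. Their adaptors MAVS and STING1 lay within 1.5-fold. Of 14 STAT, IRF and interferon genes detected on both arrays 7 were higher, and IRF1 (2.43), IRF9 (1.83), JAK2 (1.92) and the receptor chain IFNGR2 (1.48) passed in both sets of values. IRF3 lay at -0.09. The interferon gene IFNB1 was at the edge of detection, with a raw intensity of 110 on Con and 169 on IL1 and a difference of 0.13 in the deposited values.

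The guanylate-binding proteins are large GTPases known as targets of interferon-γ. Of the 6 kept, 2 were kept through IL1 only and all 4 of the others were higher, and 5 passed in both sets of values. GBP1 was already present on Con and differed by 3.25 and 3.36 on its probes. GBP4, below detection on Con, read 152 and 3724. Of 13 MHC class I genes 7 were higher, beside 9.18% of all genes. Among these 7 were the peptide transporter TAP1, which went from 862 to 9886, TAP2 (2.40), HLA-B (1.62) and HLA-E (1.42). The chaperones CALR and CANX lay at -0.05 and 0.03. The immunoproteasome subunits PSMB8 (1.78), PSMB9 (0.73 in the deposited values) and PSMB10 (1.10) passed in both sets of values, whereas of 24 constitutive proteasome subunits 1 was higher, PSMA6 at 0.69.

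A single interferon-induced gene had probes that pointed in opposite directions. For IFI6, a mitochondrial protein of the interferon response, 1 probe went from 536 on Con to 4755 on IL1 and the other from 2697 to 317, all of them detected, so that the gene's mean difference was -0.02. The deposited values held the same pattern, at 2.58 and -2.12. The gene names come from an annotation of an earlier array design, and whether either probe is misnamed was not tested. Among the other genes with the largest disagreement, OAS2 was below detection on Con on all 4 probes and at least 7.80-fold higher, and PNKD had 1 probe that went from 140 to 351, below detection on Con, and the other at -0.61.

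Promoter sequences of the higher genes are shown because the members of the NF-κB and interferon groups moved together. RefSeq windows (GRCh38.p14, from 250 bases before to 50 after the first listed start of each gene) matched 7894 of the 9500 genes. They were searched on both strands for the κB consensus of NF-κB, for the core of the interferon-stimulated response element (2 copies of GAAA with any 2 bases between them) and for the AP-1 site (TGANTCA). Only bases before the start are printed, positions count back from -1 at the last base before it, and capitals mark the matches. A match is a run of letters and not a measured binding site.

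The stretches around matches in 10 higher genes read as follows, 5′ to 3′ along the strand of the gene.
NFKBIA (chr14:35404801-35404850, minus strand): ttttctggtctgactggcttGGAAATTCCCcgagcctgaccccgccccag
TNFAIP3 (chr6:137867172-137867233, plus strand): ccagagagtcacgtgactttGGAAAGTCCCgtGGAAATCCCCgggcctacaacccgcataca
IL6 (chr7:22727107-22727156, plus strand): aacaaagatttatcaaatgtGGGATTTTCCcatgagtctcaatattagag
CCL20 (chr2:227813743-227813792, plus strand): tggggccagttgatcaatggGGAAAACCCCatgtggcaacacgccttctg
CXCL10 (chr4:76023590-76023738, minus strand): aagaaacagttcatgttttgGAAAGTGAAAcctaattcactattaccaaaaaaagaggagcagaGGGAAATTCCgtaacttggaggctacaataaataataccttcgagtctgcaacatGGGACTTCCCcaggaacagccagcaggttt
CXCL11 (chr4:76036117-76036177, minus strand): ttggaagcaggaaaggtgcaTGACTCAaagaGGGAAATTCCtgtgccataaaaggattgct
ISG15 (chr1:1013364-1013419, plus strand): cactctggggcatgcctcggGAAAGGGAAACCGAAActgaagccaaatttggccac
IFIT1 (chr10:89392487-89392549, plus strand): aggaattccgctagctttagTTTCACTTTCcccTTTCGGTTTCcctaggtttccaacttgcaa
IFIT3 (chr10:89327821-89327904, plus strand): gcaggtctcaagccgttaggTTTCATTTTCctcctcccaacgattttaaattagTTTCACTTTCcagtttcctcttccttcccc
GBP1 (chr1:89065306-89065355, minus strand): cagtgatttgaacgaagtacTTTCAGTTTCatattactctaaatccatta

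In NFKBIA, TNFAIP3, IL6 and CCL20 the capitals are κB matches, the first beginning at -81, -67, -73 and -79. ISG15, IFIT1, IFIT3 and GBP1 hold the interferon element, which in ISG15 is a pair of overlapping matches and in the last 3 reads on the opposite strand. CXCL10 holds the interferon element at -221 and κB matches at -177 and -122, and CXCL11 holds an AP-1 match at -87 followed by a κB match at -76. The window of CXCL8 held an AP-1 match at -137 and no κB match of this form, and those of CCL8, RSAD2 and SOD2 held none of the 3 motifs before the start.

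Over all 7894 windows of kept genes the κB consensus was matched in 12.8% and the interferon element in 2.94%, and over all 27305 windows of the reference in 10.8% and 3.65%. The 269 windows of genes higher in both sets of values gave 16.7% for κB and 19.3% for the interferon element. The 68 windows of genes lower in both gave 16.2% and 0%. Among interferon list members higher in both sets of values the interferon element was in 38 of 64 windows (59.4%). Among cytokine and NF-κB list members higher in both, the κB consensus was in 10 of 27 (37%). Over all kept members of the same lists, called or not, these shares were 46 of 110 (41.8%) and 18 of 59 (30.5%). A narrower κB form, with A or T at the sixth base, was in 12.3% of the windows of genes higher in both sets of values, 8.82% of those lower in both, 6.54% of those of kept genes and 5.72% of all reference windows. AP-1 matches were in 8.92%, 7.35%, 4.79% and 7.76%. These shares are descriptions, and lists picked for their response were not tested.

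Of 11 matrix metalloproteinases 7 were higher and 2 lower, beside 9.18% and 8.56% of all genes. MMP1, MMP3, MMP10, MMP12 and MMP13 were higher in both sets of values, as were 3.51% of all genes. Of the 11, 3 were kept through IL1 only and 1 through Con only. Among the 7 detected on both arrays 4 were higher and 1 lower, beside 7.14% and 6.45% of all such genes. The collagenases MMP1 and MMP13 read 143 and 148 on Con, just below detection, and 4981 and 6654 on IL1. The stromelysins MMP3 and MMP10 were detected on Con, at 402 and 675, and read 15301 and 6989 on IL1. The elastase MMP12 had probes at 74.8 and 93.1 on Con and at 7729 and 10212 on IL1. Among the membrane-bound enzymes MMP15 went from 414 to 229 and MMP16 from 171 to 102, the last below detection. Both lay within 1.5-fold in the deposited values (-0.30 and -0.09). The size of the MMP16 decrease has no usable bound, because its Con level (6.64) lay under the lowest detected level on IL1 (6.73). MMP14, another of them, lay at -0.19. The gelatinase MMP2 lay at -0.27.

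Of 10 ADAM and ADAMTS proteases ADAMTS9, which cleaves proteoglycans, was the 1 higher member, with 137 on Con, below detection, and 450 on IL1. ADAMTS14 was the 1 lower member, with 212 on Con and 146 on IL1, below detection, and -0.07 in the deposited values. Of 13 protease inhibitors 4 were higher and 0 lower, and of the 10 detected on both arrays 2 were higher. TIMP1, the bright inhibitor of metalloproteinases, lay at -0.18 and TIMP2 at -0.01, while TIMP3 differed by 0.83 here and 0.56 deposited. PI3, the elastase inhibitor elafin, was at least 6.73-fold higher. Of 11 plasminogen activation and cathepsin genes 3 were higher and 1 lower. Among 23 collagens and collagen-modifying enzymes 3 were higher and 0 were lower. The higher members were COL7A1 (1.49) and the cross-linking enzymes PLOD2 (1.09) and LOX (0.87). Over all genes 9.18% were higher and 8.56% lower, and these shares stand beside each list count in this paragraph. COL1A1 read 8544 on Con and 8413 on IL1. Of 8 cartilage genes CHI3L2, a chitinase-like protein, was the 1 called, at least 6.38-fold higher, and SOX9 lay at -0.44.

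Of 7 hyaluronan genes 3 were higher and 0 lower, beside 9.18% and 8.56% of all genes. The hyaluronan-binding protein TNFAIP6 read 111 on Con and 7310 on IL1, the hyaluronan-degrading protein CEMIP 4572 and 15198, and the receptor CD44 differed by 1.31 on its brightest probe. The synthase HAS2 was dim and lay within 1.5-fold. SDC4, a cell surface proteoglycan, was the leading glycoprotein of the matrix list, with 603 on Con and 4763 on IL1. Among adhesion molecules, VCAM1 and ICAM1, both known as NF-κB targets, were near background. VCAM1 read 81.6 and 177, and ICAM1 was lower, at 268 and 149, with a difference of -0.18 in the deposited values.

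Enzymes of metabolism and defence contained some of the brightest responses. SOD2, the mitochondrial superoxide dismutase, was the 1 higher member of 18 redox genes, and TXNIP the 1 lower, at -1.03 (-0.30 deposited). Over all genes 9.18% were higher and 8.56% lower. SOD2 had a bright probe at 3064 on Con and 39838 on IL1, and another that differed by 4.90. Its dim probe, below detection on Con, went from 96.2 to 896. HMOX1, NQO1 and CAT lay at -0.10, -0.36 and -0.29. The metallothionein MT2A was among the brightest genes on both arrays, at 20699 and 38481, and MT1X read 11241 and 25203. The zinc importer SLC39A14 differed by 2.71 and passed in both sets of values, as did NAMPT (2.59), WARS1 (1.84), GCH1 (at least 8.59-fold) and IDO1 (at least 5.15-fold), enzymes of NAD, tryptophan and tetrahydrobiopterin metabolism. Of 9 genes of the prostaglandin list 5 were higher. The 2 that passed in both sets of values were AKR1C2 and PTGER4 (1.02), which encodes a prostaglandin receptor. The higher genes PTGES and PLA2G4C lay at 0.25 and 0.28 in the deposited values, within 1.5-fold. Of the 9, 3 were kept through IL1 only, and of the 5 detected on both arrays 2 were higher. PTGS2, the inducible cyclooxygenase, was dim, at 134 and 187, and differed by 0.14 in the deposited values, and AKR1C2 was at least 6.06-fold higher.

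The decreases were small and few of them held in both sets of values. The 86 genes lower in both had a median size of 0.94 here and 0.68 in the deposited values, against 1.73 and 1.01 for the 333 higher genes. The gene lists held 8 of the 86, near their share of all kept genes (882 of 9500), and 187 of the 333 higher genes. These lists were chosen with earlier results of these data known. Of the 86, MAP7D2, a microtubule-associated protein, showed the largest decrease, from 1082 to 245. HAVCR2, the immune receptor TIM-3, went from 3603 to 1293, and CMTM8 from 4685 to 1808. The other large decreases with 1 probe included PRAG1 (-1.92), EVI2A (-1.56), KLHDC8B (-1.52), PPP1R3C (-1.51), TBC1D2 (-1.47), RAB3IL1 (-1.41) and RGCC (-1.37). PPP1R3C targets a phosphatase to glycogen, and TBC1D2 and RAB3IL1 act on Rab GTPases.

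Some decreases were read by more than 1 probe. SNAI2, the transcription factor SLUG, went from 2052 to 810 on 1 probe and from 4168 to 1830 on the other. GADD45A, a stress-induced regulator of growth arrest, was lower by 1.02 on each of its probes. The phosphodiesterase PDE5A was at -1.83 on a bright probe, and its other 2 probes, below detection on IL1, went from 319 to 150 and from 186 to 139. TP53TG3 was at -1.17 and -1.20, and FRG2B at -1.38 as a mean of 2 probes, but both belong to multicopy families whose members the probes may share. TNFRSF21, the death receptor DR6, was lower by 1.06 on its 1 probe, and the co-chaperone DNAJB1 by 0.83, whereas HSPA1A and HSPA1B were higher, at 0.74 and 1.00.

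Wnt pathway genes were the 1 list in which several members were lower in both sets of values. Of 24 kept members 9 were lower and 5 higher, beside 8.56% lower and 9.18% higher of all genes. The median was -0.31 (-0.25 with bounds). In both sets of values 4 were lower and 1 higher, against a background of 0.905% and 3.51% of all genes. The co-receptor ROR1 was lower on both of its probes, by 1.25 and 1.52. The receptor FZD2 went from 1754 to 822 and the ligand WNT5B from 1733 to 906. For FZD7 the bright probe went from 3615 to 1062, while the dim probe lay at -0.20. AXIN2, which is itself a target of the canonical pathway, differed by -1.42 here and -0.48 in the deposited values. FZD4, FZD6, DACT3 and TNFRSF19 were lower here and not in the deposited values. In the other direction RSPO3, a secreted enhancer of Wnt signalling, went from 256 to 762 and passed in both sets of values, and ROR2 differed by 1.03 here and 0.55 deposited. CTNNB1, which encodes β-catenin, lay at 0.19 and WNT5A at -0.34.

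**Figure D5:**
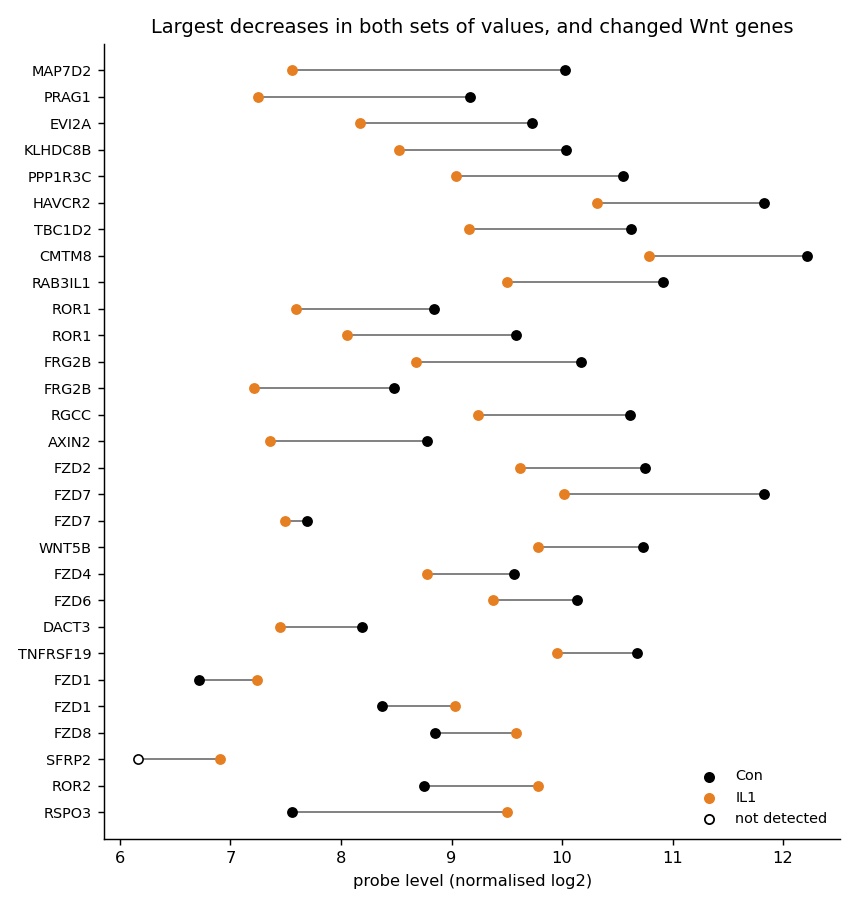
Level of each probe on the Con array (black) and the IL1 array (orange), as normalised log2 intensity, for the 12 largest decreases that passed in both sets of values and for the Wnt pathway genes past 1.5-fold; each line is 1 probe and open circles were not detected. Orange lies left of black for every decrease, by 2.47 for MAP7D2, and right of black for FZD1, FZD8, SFRP2, ROR2 and RSPO3.

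Growth factor and receptor systems were mixed. Of 21 growth factors 9 were higher and 1 lower, beside 9.18% and 8.56% of all genes. Of the 21, 3 were kept through IL1 only and 2 through Con only, and of the 16 detected on both arrays 7 were higher. VEGFC (1.01), GDF15 (1.25) and STC1 (1.26) passed in both sets of values, while VEGFA lay at -0.14. Of 25 TGF-β and BMP genes 7 were higher and 2 lower, beside the same 9.18% and 8.56% of all genes. FST, the activin-binding protein follistatin, was the 1 to pass in both sets of values, at 1.72, or 1 of 25, close to the 3.51% of all genes. BMP2 differed by 1.25 and BMP4 by -0.65. Of 24 apoptosis regulators 8 were higher and 2 lower, 5 of the higher in both sets of values. The median of this list was 0.10, beside -0.10 over all genes. CASP4 (1.49), CASP1 (2.01), RIPK2 (1.70), MLKL (at least 3.54-fold) and BID (1.36), which act in inflammatory or regulated cell death, passed in both sets of values, whereas BAX, BCL2 and XIAP lay at -0.03, -0.10 and 0.00.

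All 42 cytosolic ribosomal proteins and all 32 respiratory chain genes lay within 1.5-fold, with medians of -0.10 and -0.20. Of 32 genes of DNA replication and mitosis 31 lay within 1.5-fold, the exception being CDT1, which was below detection on IL1, at least 1.24-fold lower and at -0.05 in the deposited values. None of 10 YAP and TEAD targets was called. Of 14 reference genes IPO8 was the 1 past the threshold, at -0.64 here and -0.38 deposited, and the GAPDH probes differed by -0.16 to 0.00. Among 19 genes of cholesterol synthesis and uptake INSIG2 (1.16) and the efflux pump ABCA1 (1.17) were higher. Of 22 glycolysis genes HK2 (1.54), PFKFB4 (1.35) and SLC2A6 (1.08) were higher in both sets of values. The glucose transporter SLC2A3 was lower here (-0.59, and -0.52 deposited). Over all genes 9.18% were higher, 8.56% lower and 3.51% higher in both sets of values.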

How the data were processed

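Intensities of 4 arrays were read from a deposited table that the authors' scanner software produced, which is not normalised between arrays and gives a detection p-value for each of 48784 probes. The authors also deposited log2-scale values made with lumi (variance stabilising transformation, then robust spline normalisation); these were used as an alternative. The array named in the methods is a later design than the annotation, which lists 27578 probes, 27565 of them with 1 gene, and leaves 21206 unnamed. Here, intensities were processed with neqc of limma 3.58.1 in R 4.3.3 (offset 16, quantile normalisation of all 4 arrays, log2). Between 26.8% and 28.8% of probes were detected per array, and median raw intensity was 86.9 to 113. The number of arrays limits the precision. For each gene the probes kept in this comparison were averaged (12066 probes with 1 gene). Counting was checked on simulated arrays in which every probe was set as detected and the noise was under the SD between probes. That check did not exercise the detection rule, the bounds or dim genes. Members and the 60 gene lists were chosen with earlier results of these data known. Genes were named by rule: the largest differences among genes with several probes, with 1 probe, or detected on 1 array, the largest members of each list, members that went against it and the highest members of lists with few calls, the largest probe disagreements, the largest decreases in both sets of values, and genes named by the study. Other genes named were chosen after their values were seen. Alternatives changed the background correction, scaling, detection rule, probe summary, threshold and arrays normalised.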

Additional observations from a re-analysis of the deposited data

Results flagged for a closer look

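Probes without a named gene were not used in the comparison of named genes, and they were called at shares near those of named probes. Of 1857 unnamed probes detected on Con or IL1, 154 (8.29%) were higher in IL1 and 168 (9.05%) lower, against 9.64% and 8.35% of the named probes. In both sets of values 51 of the 1857 unnamed probes were higher and 11 lower, beside 3.51% and 0.905% of named genes. At least 4-fold higher in both were 6 unnamed probes, the largest difference being 4.74 in the deposited values. No other result was singled out by the rules used, since groups of 1 array allow neither a test for outlying samples nor one of differences between groups.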

How the results depend on the processing

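The counts of 872 higher and 813 lower genes changed with the processing, and the cause was not tested. With the authors' deposited values 340 genes were higher and 86 lower, and without background correction 424 were lower; a 2-fold threshold left 497 and 183. The share of higher genes among changed genes was 51.8%, and became 79.8% with the deposited values, 73.1% at 2-fold, 61.8% without background correction, 56.5% with an offset of 50 and 48.8% with median scaling. The other alternatives gave 609 to 1113 higher and 548 to 1107 lower genes. The detection rule gave both ends and also changed the number of genes kept, to 8680 at the low end and 11829 at the high end. Of 319 named genes, 235 moved by more than the SD between probes with the deposited values, the sign changed for 0 of the 278 past 1.5-fold and 9 of the 41 within it, and 0 moved by that much when the arrays of this comparison were normalised alone. No replicate could be left out and no paired analysis was possible because each condition is 1 array. Signal near background limits the dim genes: all 422 calls at levels under 7 but 5 were lost in the deposited values.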

Other observations

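Genes in none of the lists, chosen after their values were seen, made up 146 of the 333 genes higher in both sets of values. C11orf96 had the largest difference among them in the deposited values, with a raw intensity of 311 on Con and 7277 on IL1. NINJ1, a membrane protein known for its part in plasma membrane rupture, went from 807 to 6273. OLR1, the receptor for oxidised LDL, and DEFB4A, the antimicrobial β-defensin 2, were below detection on Con and at least 18.7-fold and 18.1-fold higher. COXFA4L3, a mitochondrial protein related to a subunit of cytochrome oxidase, was higher by 3.24 on 1 probe and, below detection on Con, went from 107 to 867 on the other.

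Receptors were among these genes. The chemokine receptor CXCR4 was higher by 1.84 and 1.87 on its probes and IL7R by 1.72 and 1.74. SRGN, the granule proteoglycan serglycin, differed by 2.08, and the acute-phase gene SAA1, below detection on Con on 3 probes, was at least 5.30-fold higher. WTAP, a component of the RNA m6A methyltransferase complex, was higher on all 5 of its probes, by 0.63 to 2.37. Among decreases outside the lists, ENC1 went from 9485 to 3888, and ULK1, a kinase that starts autophagy, was lower by 0.75 and 1.00 on its probes.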
